A study of Mus musculus with 19 samples.

Results

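The genes described here encode the enzymes that desaturate and lengthen polyunsaturated fatty acids, together with the relatives that share their gene names: the desaturases Fads1, Fads2, Fads3 and Fads6 and the elongases Elovl1, Elovl2, Elovl3 and Elovl5. They were picked by symbol from the table of gene counts, which makes 8 of the 55836 genes listed, and all 8 were among the 13597 genes that passed the filter on low counts. Livers of male C57BL/6 wild-type (WT) mice, 8 weeks old when bought, were compared in 4 groups. The control diet (CD, Chow Diet in the labels) or the high-fat, high-fructose, high-cholesterol diet that induces metabolic dysfunction-associated steatohepatitis (MD, MASH Diet) was fed for 8 weeks, and all mice were gavaged daily, either with vehicle (Veh, water with Tween 20) or with 2 mg of polyethylene microplastic (PE) per mouse per day suspended in it. Bulk RNA sequencing gave 1 library per mouse, from 4 mice on CD + Veh and 5 mice in each of the groups CD + PE, MD + Veh and MD + PE.

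Mammals cannot make linoleic acid or α-linolenic acid, and the liver converts these dietary precursors into arachidonic acid, eicosapentaenoic acid and docosahexaenoic acid by alternating desaturation and elongation in the endoplasmic reticulum. FADS2 is the Δ6-desaturase that takes the first step, ELOVL5 lengthens its product, FADS1 is the Δ5-desaturase that then yields arachidonic and eicosapentaenoic acid, and ELOVL2 carries out the later elongations that docosahexaenoic acid requires. The hepatic genes of this route are known targets of the sterol regulatory element-binding protein SREBP1 and of the fatty acid receptor PPARα. The shared names go further than the shared function: ELOVL1 and ELOVL3 act mainly on saturated and monounsaturated very long chains, FADS3 is known for desaturating sphingoid bases, and FADS6 has no settled substrate, so that only Fads1, Fads2, Elovl2 and Elovl5 belong to the polyunsaturated route itself.

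Fads3, Fads2 and Fads1 form a cluster on mouse chromosome 19 (GRCm39). Fads3 lies at chr19:10018253-10037928 on the plus strand, Fads2 at chr19:10038130-10079203 on the minus strand and Fads1 at chr19:10160167-10174241 on the plus strand. Only 201 bases separate the ends of Fads3 and Fads2, and the whole cluster spans 155989 bases. Elovl3 is on the same chromosome at chr19:46119917-46124133, Elovl2 at chr13:41335857-41374112, Elovl5 at chr9:77818113-77891802, Elovl1 at chr4:118284346-118290150 and Fads6 at chr11:115170448-115188489.

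Promoter windows of 250 bases ending at the transcript start were found in RefSeq (GRCm38.p6) for 6 of the 8 genes. Those of Elovl5, Fads2 and Elovl2, each called lower in MD + PE against every other group, are set beside that of Fads3. Fads3 is the cluster gene for which no change was called, though on 15 to 54 counts per library a change could have been missed. The windows lie at chr9:77917115-77917364 (plus strand) for Elovl5, chr19:10101504-10101753 (minus strand) for Fads2, chr13:41220404-41220653 (minus strand, the first of its starts listed) for Elovl2 and chr19:10041298-10041547 (plus strand) for Fads3. Capitals mark matches on either strand to the CCAAT box (CCAAT), the E-box (CACGTG) and the GC box (GGGCGG).
Elovl5: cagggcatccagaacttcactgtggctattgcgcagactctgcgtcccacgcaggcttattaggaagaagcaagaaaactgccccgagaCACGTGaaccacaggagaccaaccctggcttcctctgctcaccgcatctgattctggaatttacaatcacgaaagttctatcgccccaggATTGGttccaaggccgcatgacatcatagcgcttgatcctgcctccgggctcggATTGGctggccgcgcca
Fads2: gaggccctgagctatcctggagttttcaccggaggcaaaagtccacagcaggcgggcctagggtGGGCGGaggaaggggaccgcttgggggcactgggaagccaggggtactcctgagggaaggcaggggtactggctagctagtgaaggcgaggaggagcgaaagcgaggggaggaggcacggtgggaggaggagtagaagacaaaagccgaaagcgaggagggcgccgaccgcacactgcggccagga
Elovl2: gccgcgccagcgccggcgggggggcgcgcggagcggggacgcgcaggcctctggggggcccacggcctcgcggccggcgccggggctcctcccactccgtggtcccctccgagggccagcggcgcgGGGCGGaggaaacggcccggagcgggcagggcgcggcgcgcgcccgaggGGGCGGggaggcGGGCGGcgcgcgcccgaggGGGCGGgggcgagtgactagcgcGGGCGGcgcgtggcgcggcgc
Fads3: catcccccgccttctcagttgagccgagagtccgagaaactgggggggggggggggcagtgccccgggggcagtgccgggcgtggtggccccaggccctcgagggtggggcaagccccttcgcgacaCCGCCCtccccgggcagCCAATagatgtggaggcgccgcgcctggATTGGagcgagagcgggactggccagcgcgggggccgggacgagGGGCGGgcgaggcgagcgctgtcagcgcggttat
The Elovl5 window held 2 CCAAT boxes, 71 and 17 bases before the start, and 1 E-box 161 bases before it. That of Fads2 held 1 GC box and none of the other motifs searched, and that of Elovl2 held 5 GC boxes. The Fads3 window held 2 CCAAT boxes and 2 GC boxes. Of all 32851 windows, 33.8% held a CCAAT box, 6.02% an E-box and 32.7% a GC box, and the sterol regulatory element TCACNCCAC, present in 1.05% of them, was found in none of the windows of these 6 genes. The cyclic AMP response element TGACGTCA (1.55% of windows) was not found in them either, and the nuclear receptor motif AGGTCA (14% of windows) was found in none of the windows printed. A match of letters is no evidence of binding.

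Depth was 10398820 to 15456729 counts per library, and on either diet the deepest PE library was shallower than the shallowest vehicle library. Hepatocyte markers such as Alb summed to 62877 to 111287 CPM (read counts relative to library size, scaled by TMM) in every library, and all 10 were detected, as liver tissue should hold them, and the sums were lower on MD (CD + Veh 89015 to 104449, MD + Veh 65551 to 81255). The PE groups share their side of a division in the order of library numbers, between 45 and 46, with only 2 vehicle libraries, both MD + Veh, while all CD + Veh libraries are on the other side. In CD, PE and this division therefore cannot be told apart. The labels name a single batch and mark no such division, and the library numbers run from 39 to 57 without a gap. The place of the division was chosen for the re-analysis, and whether it reflects a batch was not tested. Skeletal muscle markers summed to 4529 CPM in MD + Veh replicate 1 and Kupffer cell markers to 969 CPM in CD + PE replicate 2, far above the other libraries of their groups. MD + PE replicate 2 held 278 CPM of intestinal markers (group median 128) and 175 CPM of bile duct markers (group median 49.7). In bulk tissue, fewer cells of a type and less RNA per cell cannot be told apart.

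Per kilobase of the canonical transcript, the polyunsaturated route was the abundant part of the family in CD + Veh. Fads2 came first at 369 ± 107 CPM per kb (SD, n = 4), followed by Elovl5 at 291 ± 60.5, Elovl2 at 223 ± 33.5 and Fads1 at 223 ± 57.3, and these neighbours were within their spread of each other. Elovl3 followed at 45.5 ± 19.2, Fads6 at 30.8 ± 1.99 and Elovl1 at 14.5 ± 0.595 CPM per kb. Fads3 was close to absent at 0.577 ± 0.105 CPM per kb, on 15 to 54 counts per library over all groups. In MD + PE the order was Fads2, Elovl5, Elovl3, Elovl2 and Fads1, from 151 ± 36.0 down to 58.2 ± 19.8 CPM per kb (n = 5).

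**Figure D1:**
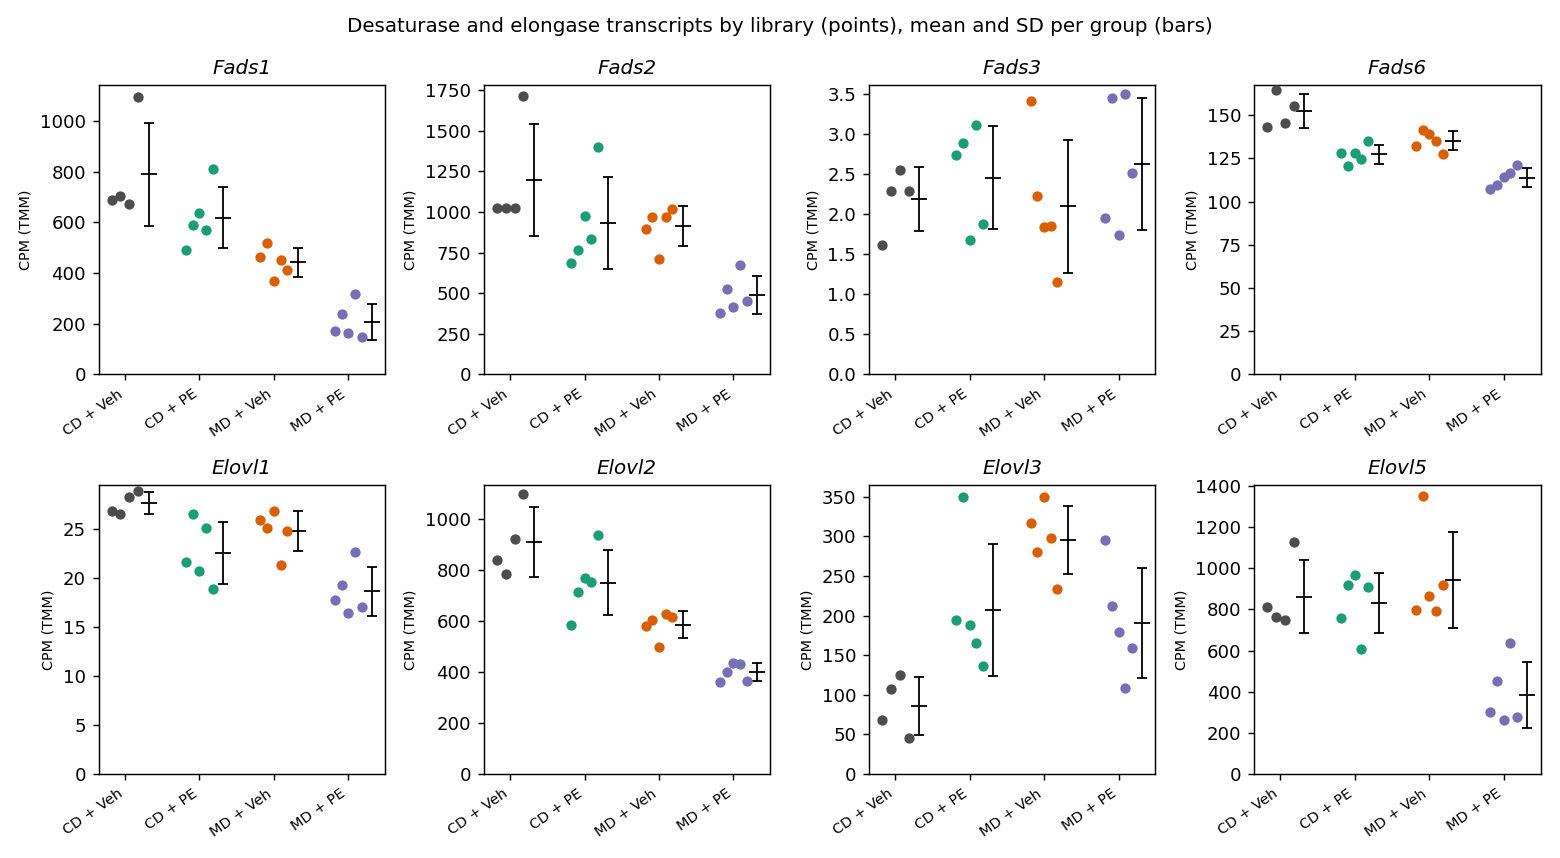
CPM (TMM, linear axis from 0) of each of the 8 genes in each library, by group, with the group mean and SD as bars. Fads1, Fads2 and Elovl2 were lower in all 5 MD + PE libraries than in the 14 others, and Elovl3 had its lowest group mean in CD + Veh.

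The first question was what PE did to the family on MD. In MD + PE, 5 of the 8 genes were lower than in MD + Veh, against 0.934% of all genes tested, and none was called higher, as 0.147% of all genes were. A gene was called when edgeR's quasi-likelihood test gave a Benjamini-Hochberg adjusted p below 0.05 over all genes tested and the log2 fold change was at least 0.38 in size. All 4 genes of the polyunsaturated route fell, together with Elovl1. The median log2 fold change of the 8 genes was -0.59, and that of all genes -0.01.

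Elovl5, the elongase that follows Δ6-desaturation, measured 796, 1350.3, 866, 791 and 919 CPM in MD + Veh replicates 1 to 5. The MD + PE libraries held 299.9, 454, 261, 638 and 276 CPM. Every MD + PE library was below every MD + Veh library, with MD + PE replicate 4 well above its group and MD + Veh replicate 2 well above its own. Elovl5 fell by 1.29 on the log2 scale (SE 0.23, edgeR adjusted p = 0.00702), to 0.409 of its MD + Veh level.

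Fads1, the Δ5-desaturase, held 462, 517, 368, 450.2 and 409.9 CPM in MD + Veh and 170.0, 236, 164, 317 and 147 CPM in MD + PE. The groups did not overlap, which was the case, in this direction, for 2.49% of all genes tested. The log2 fold change was -1.09 (SE 0.19, edgeR adjusted p = 0.00773), or 0.468 of the MD + Veh level.

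Fads2, the Δ6-desaturase, held 895, 971, 711, 967 and 1021 CPM in MD + Veh, and 380.1, 525, 414, 675 and 454 CPM in MD + PE. Its groups did not overlap either. The log2 fold change was -0.90 (SE 0.20, edgeR adjusted p = 0.0281). Leaving out 1 library at a time, the call was kept in 13 of 19 fits, and the adjusted p reached 0.0921.

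Elovl2, the elongase of the later steps, held 580.4, 604, 497, 627 and 615 CPM in MD + Veh and 360.0, 401, 435, 431 and 364 CPM in MD + PE. The spread was the smallest of the 4 route genes, with a coefficient of variation of 8.88% and 8.96%, and the groups did not overlap. The log2 fold change was -0.55 (SE 0.11, edgeR adjusted p = 0.0177).

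Of the other members, Elovl1 alone was called. It held 21.4 to 26.8 CPM in MD + Veh and 16.4 to 22.7 CPM in MD + PE, groups that overlapped, and gave a log2 fold change of -0.41 (SE 0.10, edgeR adjusted p = 0.0413). The call was kept in 5 of 19 fits that left out 1 library and was lost with RLE normalization. Fads6 held 128 to 142 CPM in MD + Veh and 108 to 121 CPM in MD + PE, without overlap, but its log2 fold change of -0.25 (SE 0.05, edgeR adjusted p = 0.0280) was below the fold limit. Elovl3, at 233 to 350.2 and 108 to 295 CPM, gave -0.63 (SE 0.28, adjusted p = 0.278), and Fads3 gave 0.32 (SE 0.28, adjusted p = 0.633).

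These calls meet a limit, since the library numbers follow the groups. With the division of library numbers as a covariate, none of the 8 genes was called between MD + PE and MD + Veh, although the log2 fold changes of the 4 route genes were between -0.64 and -1.15 (adjusted p 0.0799 to 0.128). As the groups did not overlap for any of these genes, each MD + Veh library was above all 5 MD + PE libraries. The 2 MD + Veh libraries on the MD + PE side of the division therefore had to be above as well, which is no check on the division. These 2 held 410 to 450 CPM against 147 to 317 in MD + PE for Fads1, 967 to 1021 against 380 to 675 for Fads2, 615 to 627 against 360 to 435 for Elovl2 and 791 to 919 against 261 to 638 for Elovl5.

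With PE on CD, 1 of the 8 genes was called, Elovl3, which rose, against 1.22% of all genes tested that were called higher. No member was called lower by edgeR, against 1.7% of all genes. DESeq2 called none lower either, of the 569 genes it called in either direction. At an unadjusted p below 0.05 in edgeR, 3 members were lower, and 2377 of the 13597 genes tested passed it in either direction. Elovl3, an elongase of saturated and monounsaturated very long chains that is known for its circadian and male-biased expression in liver, held 67.6, 107, 124 and 45.1 CPM in CD + Veh. The CD + PE libraries held 194, 349.8, 189, 165 and 137 CPM. The groups did not overlap, as in 3.49% of all genes in this direction, and replicate 2 of CD + PE stood far above the rest. The log2 fold change was 1.26 (SE 0.31, edgeR adjusted p = 0.0261), a ratio of 2.40. The call was lost without CD + Veh replicate 1, CD + Veh replicate 4 or CD + PE replicate 2 (adjusted p = 0.0905, 0.0885 and 0.0554).

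For the route genes on CD, Fads1 held 674 to 1095 CPM in CD + Veh and 490.5 to 810.3 CPM in CD + PE, which gave a log2 estimate of -0.35 (SE 0.20, edgeR adjusted p = 0.396). Fads2 gave -0.36 (SE 0.21, adjusted p = 0.395), Elovl2 -0.28 (SE 0.12, adjusted p = 0.218) and Elovl5 -0.05 (SE 0.24, adjusted p = 0.952). CD + Veh replicate 4 was the highest of its group for Fads1, Fads2, Elovl1, Elovl2 and Elovl5 and the lowest for Elovl3. Fads6 held 143, 165, 146 and 156 CPM in CD + Veh and 128, 121, 128, 125 and 135 CPM in CD + PE, without overlap, as 4.35% of all genes in this direction, and its log2 fold change of -0.26 (SE 0.06, edgeR adjusted p = 0.0169) was again below the fold limit.

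Whether PE acted differently on the 2 diets was tested as an interaction. It was called by edgeR for none of the 8 genes and for 1 of all genes tested (0.00735%). At an unadjusted p below 0.05 in edgeR there were 3 of the 8, and 1193 of the 13597 genes tested. DESeq2 called 2 of the 8, and 78 of all genes tested. Elovl3 had the largest estimate, with a log2 difference between the PE effects of -1.90 (SE 0.42, unadjusted p = 0.000211, edgeR adjusted p = 0.216, DESeq2 adjusted p = 0.0160). Elovl5 followed with -1.24 (SE 0.33, unadjusted p = 0.00125, edgeR adjusted p = 0.216, DESeq2 adjusted p = 0.0304). For Fads1 the estimate was -0.74 (SE 0.28, edgeR adjusted p = 0.436) and for Fads2 -0.54 (SE 0.29, edgeR adjusted p = 0.627), so that a difference of the PE effect between the diets was not shown for the desaturases.

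**Figure D2:**
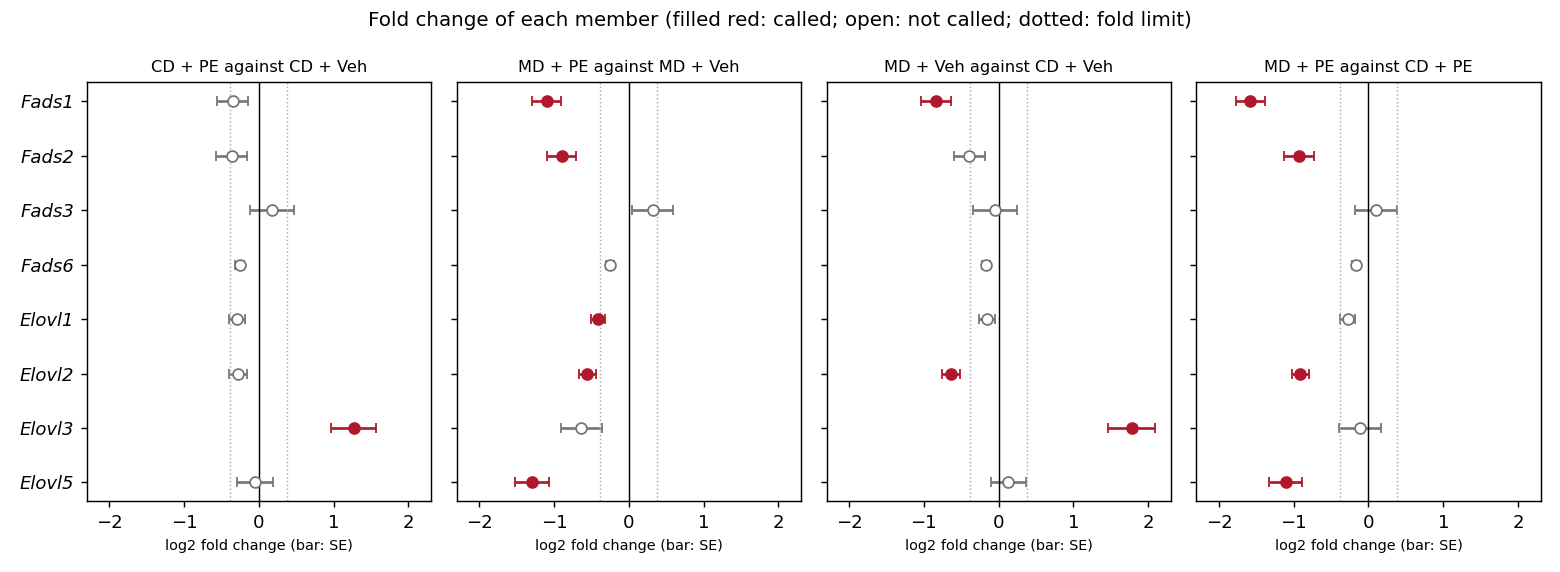
Log2 fold change of each of the 8 genes in 4 comparisons, with bars of 1 SE. Filled red points are called, open points are not, and the dotted lines mark the fold limit of 0.38 in each direction. Fads1, Fads2, Fads6, Elovl1 and Elovl2 lie to the left in all 4 panels, though not all are called. Elovl3 is called to the right in CD + PE against CD + Veh and in MD + Veh against CD + Veh.

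The diet alone changed 3 of the 8 genes. In MD + Veh, Fads1 and Elovl2 were lower than in CD + Veh, against 5.63% of all genes called lower, and Elovl3 was higher, against 4.74% called higher. Fads1 held 674 to 1095 CPM in CD + Veh and 368 to 517 CPM in MD + Veh, and it fell by 0.84 on the log2 scale (SE 0.20, edgeR adjusted p = 0.00884). Without CD + Veh replicate 4 it was -0.63 and the call was lost (adjusted p = 0.0572). Elovl2 held 784 to 1096 and 497 to 627 CPM, which gave a log2 fold change of -0.64 (SE 0.12, edgeR adjusted p = 0.00126). Elovl3 held 45.1 to 124 and 233 to 350.2 CPM, which gave a log2 fold change of 1.78 (SE 0.31, edgeR adjusted p = 0.000762), the largest of the family. Its groups did not overlap, as in 7.37% of all genes in this direction. Fads2 did not overlap between these groups, as 8.88% of all genes in this direction, but gave -0.39 with an adjusted p of 0.221, and Elovl5 gave 0.13 (SE 0.24, adjusted p = 0.760).

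With PE in both groups, all 4 genes of the polyunsaturated route were lower on MD. In MD + PE against CD + PE, Fads1, Fads2, Elovl2 and Elovl5 were called lower, 4 of 8 genes against 2.92% of all genes, while none was called higher, as 1.69% of all genes were. The groups did not overlap for 3 of them, Fads1, Fads2 and Elovl2, against 3.96% of all genes. The count of 4 was the same under all 10 alternative settings and in all 19 fits without 1 library. Fads1 gave -1.58 (SE 0.20, edgeR adjusted p = 3.69e-05), Elovl5 -1.11 (SE 0.23, adjusted p = 0.00473), Fads2 -0.93 (SE 0.20, adjusted p = 0.00663) and Elovl2 -0.91 (SE 0.11, adjusted p = 3.71e-05) on the log2 scale. Elovl3 gave -0.12 (SE 0.28, adjusted p = 0.855). This comparison holds all its libraries on 1 side of the division of library numbers.

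Between the extreme groups, MD + PE and CD + Veh, 7 of the 8 genes were called. The 6 lower genes, which did not overlap between the groups, stood against 8.55% of all genes called lower and 11.3% without overlap, and Elovl3, the 1 higher gene, against 6.02%. Fads1 fell by 1.93 (SE 0.21, edgeR adjusted p = 1.9e-06), to 0.262 of its level. Fads2 fell by 1.29 (SE 0.21, adjusted p = 0.000191), Elovl2 by 1.19 (SE 0.12, adjusted p = 9.33e-07) and Elovl5 by 1.16 (SE 0.24, adjusted p = 0.0016). Elovl1 fell by 0.57 (SE 0.10, adjusted p = 0.000618) and Fads6 by 0.42 (SE 0.06, adjusted p = 3.66e-05), while Elovl3 rose by 1.15 (SE 0.31, adjusted p = 0.0116). With the division of library numbers as a covariate, Fads1, Fads2 and Elovl2 alone were called, and with a score of clock gene expression, Fads1, Elovl1, Elovl2 and Elovl5, with Elovl3 at 0.16 (adjusted p = 0.802). Of 10 hepatocyte markers, 5 were called lower and 1 higher in this comparison (median -0.57), and their part in the result was not tested. The comparisons share groups, so their values stand side by side and are not independent of each other.

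Fads1, Fads2 and Elovl2 were lower in every MD + PE library than in any other. For Fads1 the highest MD + PE library had 317 CPM and the lowest of the 14 others 368 CPM. For Elovl2 these values were 435 and 497 CPM, and for Fads2 675 and 688 CPM, a narrow gap. Of all genes tested, 0.78% were lower in all 5 MD + PE libraries than in the 14 others. Elovl5 missed this through MD + PE replicate 4 (638 CPM) and a CD + PE library with 609 CPM.

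The order of the groups differed within the family. For Fads1 and Elovl2 the mean was highest in CD + Veh, followed by CD + PE, then MD + Veh and last MD + PE, at 790.1 ± 203, 619 ± 119, 442 ± 56.2 and 207 ± 70.4 CPM for Fads1 and 909 ± 136, 749 ± 127, 585 ± 51.9 and 398 ± 35.7 CPM for Elovl2 (SD, n = 4, 5, 5 and 5). Fads2 had the same order, but its CD + PE and MD + Veh means were within their spread of each other (287 ± 86.7 and 282 ± 37.5 CPM per kb). For Fads6 and Elovl1 the 2 middle groups stood the other way round, with MD + Veh (135 ± 5.53 and 24.8 ± 2.07 CPM) above CD + PE (127 ± 5.40 and 22.6 ± 3.17 CPM), a difference within the spread for Elovl1. Elovl5 held about the same level in 3 groups (863 ± 179, 832 ± 147 and 945 ± 233 CPM) and 386 ± 161 CPM in MD + PE. Elovl3 was lowest in CD + Veh (86.1 ± 36.3 CPM) and highest in MD + Veh (296 ± 43.4 CPM), and CD + PE (207 ± 83.1 CPM) and MD + PE (191 ± 69.4 CPM) did not differ beyond their spread.

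The balance between Fads1 and Fads2 differed by diet. The ratio of Fads1 to Fads2 counts within a library, which no scaling between libraries touches, was 0.672, 0.687, 0.656 and 0.638 in CD + Veh and 0.713, 0.767, 0.653, 0.680 and 0.579 in CD + PE. On MD it was 0.401 to 0.532 with vehicle (median 0.517) and 0.447, 0.450, 0.395, 0.470 and 0.323 with PE. All 9 CD libraries were above all 10 MD libraries, and PE and vehicle overlapped on each diet. The group means were 0.663 ± 0.0213, 0.679 ± 0.0698, 0.487 ± 0.0540 and 0.417 ± 0.0595 (SD). The ratio was chosen after the values of both genes were seen and is given as a description, with no test.

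**Figure D3:**
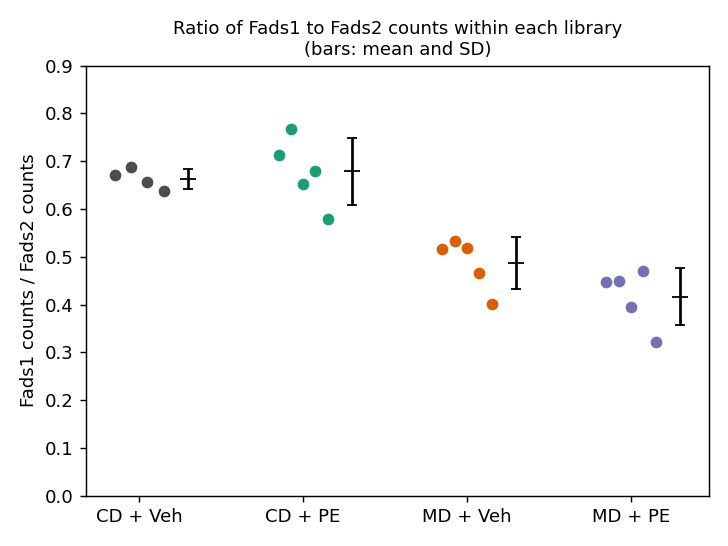
Ratio of Fads1 to Fads2 counts within each library (unitless, axis from 0), by group, with the group mean and SD as bars. The 9 libraries on CD lie between 0.579 and 0.767 and the 10 on MD between 0.323 and 0.532.

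Within groups, levels of the route genes were correlated from mouse to mouse. After group means were subtracted, log2 CPM of Fads1 and Fads2 correlated at Pearson's r = 0.88 over the 19 libraries, Fads1 and Elovl5 at 0.83, Fads2 and Elovl2 at 0.84 and Elovl2 and Elovl5 at 0.37. Elovl3 ran the other way, at -0.74 with Fads2, -0.55 with Fads1 and -0.54 with Elovl2. These values are descriptive, since the libraries share scaling and depth. MD + PE replicate 4 was the highest of its group for Fads1, Fads2, Fads3, Elovl1 and Elovl5 and the lowest for Elovl3.

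Elovl3 was read beside the clock genes of the liver. A clock score was formed as the mean log2 CPM of the activators Bmal1, Clock and Npas2 less that of Dbp, Nr1d1, Nr1d2, Per3, Tef and Ciart. It ran from -5.09 to -3.86 in CD + Veh, from -3.41 to 0.59 in CD + PE, from -2.59 to -0.09 in MD + Veh and from -2.27 to -0.11 in MD + PE, and the libraries with the lowest and highest Elovl3 in the CD groups were those with the lowest and highest scores, while in the MD groups this held for the highest library of MD + PE and the lowest of MD + Veh. Bmal1 rose in CD + PE (a ratio of 3.02, edgeR adjusted p = 0.0308) and with the diet (a ratio of 4.44, adjusted p = 0.0012). In CD + PE, Bmal1 was at 20.9 CPM in replicate 2 and at 5.73 to 7.15 CPM in the other libraries, against 2.22 to 4.76 CPM in CD + Veh. With the score as a covariate, Elovl3 gave 0.49 for PE on CD (adjusted p = 0.340) and 0.80 for the diet (adjusted p = 0.157), and neither was called. The diet calls of Fads1 and Elovl2 were lost in that fit as well (-0.71 and -0.43), while the 4 route genes and Elovl1 were still called for PE on MD. CD + Veh scores did not overlap with those of the other groups, so score and group cannot be told apart there, and the times at which livers were taken are not given in the sources used here.

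**Figure D4:**
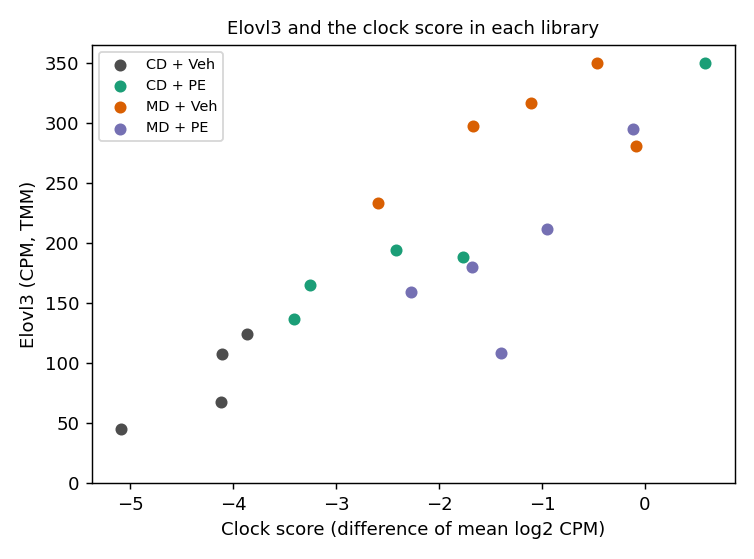
Elovl3 in CPM (linear axis from 0) against the clock score in each of the 19 libraries, coloured by group. CD + Veh libraries lie at scores from -5.09 to -3.86 with at most 124 CPM, and CD + PE replicate 2 has the highest score, 0.59, with 349.8 CPM.

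Markers of other cell types were read beside these results. Elovl3 is also a gene of brown fat, and the adipocyte list of 10 genes summed to 2706 to 4625 CPM in CD + Veh, 3901 to 7742 CPM in CD + PE, 4372 to 6510 CPM in MD + Veh and 4211 to 7692 CPM in MD + PE, most of it from Car3 and Pck1, which hepatocytes also express. Of 5 genes of this list tested, edgeR called 1 higher with PE on CD (Car3), 3 higher with the diet (Car3, Cidea and Cfd) and none with PE on MD, where none passed at an unadjusted p below 0.05 or by DESeq2. Cfd held 0.13 to 2.12 CPM on CD and 66.9 to 224 CPM on MD, and Cidea at most 0.44 CPM on CD and 1.13 to 9.41 CPM on MD. Ucp1 was at 0 in every library, and Adipoq was at 0.557 CPM or less in all but MD + Veh replicate 1, with 4.18 CPM. The part of adipocytes in the Elovl3 results was not tested. For Elovl1, Kupffer cell markers summed to 345 to 484 CPM in MD + Veh and 255 to 448 CPM in MD + PE. The part of these cells in the Elovl1 result was not tested. Of 11 muscle markers tested, edgeR called 11 higher with the diet and 5 lower with PE on MD, where 11 were lower by DESeq2 and at an unadjusted p below 0.05. Their sum was highest in MD + Veh replicate 1, and without that library Fads1, Elovl2 and Elovl5 were still called on MD, while Fads2 (adjusted p = 0.0566) and Elovl1 (adjusted p = 0.109) were not. Without MD + PE replicate 2, which stood apart for intestinal and bile duct markers, Fads1, Elovl2 and Elovl5 were called as well, and Fads2 (adjusted p = 0.0528) and Elovl1 (adjusted p = 0.0760) were not.

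Enzymes that work with the desaturases and elongases moved in part. Desaturases draw electrons from cytochrome b5 and its reductase, and of 5 such genes tested, 1 rose and 1 fell with PE on CD, 2 fell with PE on MD, and 1 rose and 1 fell with the diet. Cyb5r3, the reductase, fell in all 3 comparisons, with log2 fold changes of -0.41, -0.59 and -0.75 (edgeR adjusted p = 0.00933, 0.000887 and 7.56e-06), from 800.2 ± 105 CPM in CD + Veh to 317 ± 14.6 CPM in MD + PE. Cyb5a, microsomal cytochrome b5, rose with PE on CD (0.63, SE 0.12, adjusted p = 0.00716) and with the diet (0.63, SE 0.12, adjusted p = 0.00161). Of 6 genes for the later steps of the elongation cycle, Tecr, the enoyl reductase that completes each round, fell with PE on MD (-0.40, SE 0.08, adjusted p = 0.0136) and with the diet (-0.54, SE 0.08, adjusted p = 0.000209), and edgeR called no other in either, while DESeq2 called 1 more with the diet, higher. On CD none was called with PE by edgeR or DESeq2, nor at an unadjusted p below 0.05.

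The remaining elongase tested, Elovl6, which extends palmitate to stearate and belongs to fatty acid synthesis, fell with PE on CD (-1.75, SE 0.25, edgeR adjusted p = 0.00107) and with the diet (-1.80, SE 0.25, adjusted p = 9.71e-05). With PE on MD it gave -0.88 (SE 0.24, edgeR adjusted p = 0.0663) and was not called by edgeR, while DESeq2 called it lower. Of 3 stearoyl-CoA desaturases tested, 2 fell with PE on each diet and none was called with the diet. Scd1, which makes monounsaturated fatty acids, fell by 1.06 on CD and by 1.32 on MD (edgeR adjusted p = 0.00526 and 0.00121).

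Targets of the SREBPs were counted beside the family. Of 13 fatty acid synthesis targets of SREBP1, 13 fell with PE on CD (median log2 fold change -1.58), 10 with PE on MD (-1.04) and 12 with the diet (-1.49). Of 19 sterol targets of SREBP2, 11, 12 and 18 fell (medians -0.77, -0.86 and -2.03). The medians of the 8 members in the same order were -0.27, -0.59 and -0.16, and those of all genes 0.01, -0.01 and -0.00415. The SREBP1 list includes Elovl6 and Scd1. The members' medians include the 4 genes outside the polyunsaturated route. With PE on MD the route genes gave -1.09, -0.90, -0.55 and -1.29 (Fads1, Fads2, Elovl2 and Elovl5). On CD, the same genes in the same order gave -0.35, -0.36, -0.28 and -0.05 with PE. All 13 targets of SREBP1 were called lower with PE on CD. No member was called lower there, though 3 were lower at an unadjusted p below 0.05 in edgeR. These are counts and medians, and the difference between the lists was not tested.

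**Figure D5:**
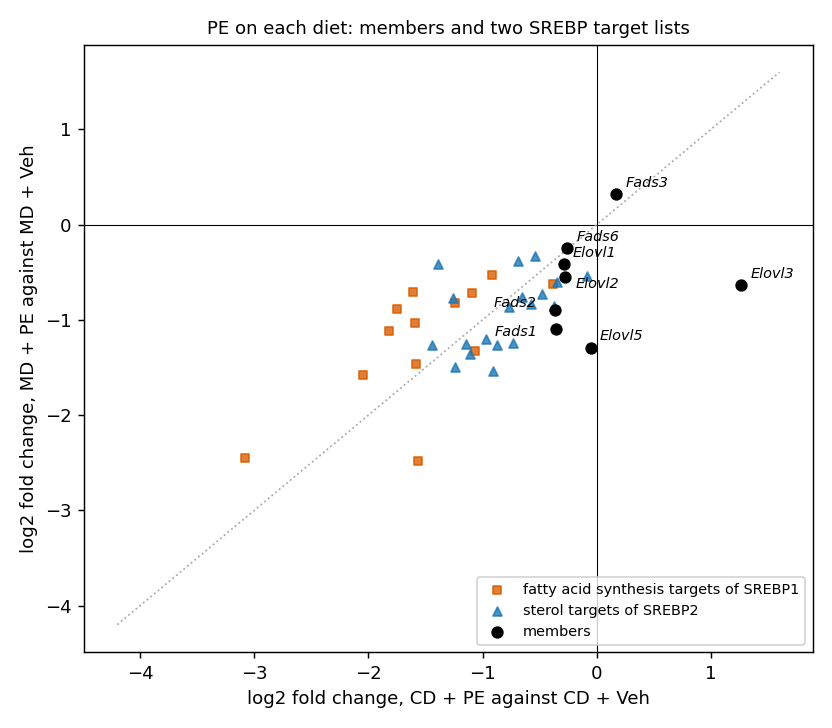
Log2 fold change with PE on CD (horizontal) and on MD (vertical) for the 8 members (black), 13 SREBP1 targets (orange squares) and 19 SREBP2 targets (blue triangles). Points on the dotted line have equal estimates on both diets. Fads1, Fads2, Elovl1, Elovl2, Elovl3 and Elovl5 lie below it, and edgeR called the interaction for no member. Estimates of Fads1, Fads2 and Elovl5 were between -0.36 and -0.05 on CD and between -1.29 and -0.90 on MD. Those of Elovl3 were 1.26 on CD and -0.63 on MD.

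Transcripts of the regulators were read as well. Srebf1, which encodes SREBP1, gave -0.51 with PE on CD, -0.30 with PE on MD and 0.29 with the diet (edgeR adjusted p = 0.218, 0.535 and 0.409), and Ppara gave 0.16, 0.04 and 0.25 (adjusted p = 0.650, 0.933 and 0.264). Of 13 regulators, Scap, the escort protein of the SREBPs, was called lower with PE on CD (-0.65, SE 0.11, adjusted p = 0.00286) and with the diet (-1.07, SE 0.11, adjusted p = 2.99e-06). Srebf2 was called lower with PE on MD (-0.39, SE 0.09, adjusted p = 0.029) and with the diet (-0.46, SE 0.09, adjusted p = 0.00173). Insig2, which holds SREBPs in the endoplasmic reticulum, rose with the diet (1.36, SE 0.18, adjusted p = 4.49e-05), as did Pparg (0.91, SE 0.27, adjusted p = 0.0316).

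Of 20 targets of PPARα, 5 rose with PE on CD and 10 with the diet, and none was called with PE on MD by edgeR (3 higher and 2 lower at an unadjusted p below 0.05, and 1 higher by DESeq2), with medians of 0.47, 0.67 and 0.21. Cyp4a10, an ω-hydroxylase of fatty acids, rose by 2.45 with PE on CD (SE 0.56, edgeR adjusted p = 0.0191). Peroxisomes shorten very long chains to docosahexaenoic acid in the last step of the route, and 7 of 13 peroxisomal genes rose with the diet (median 0.40), among them Acaa1b (1.56, SE 0.17, adjusted p = 6.44e-06) and Acox2 (0.74, SE 0.11, adjusted p = 0.000123). With PE none of the 13 was called by edgeR on either diet, with 3 higher and 2 lower at an unadjusted p below 0.05 on CD and 2 lower on MD, and DESeq2 called 1 higher on CD and 1 lower on MD.

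Of 15 genes that activate fatty acids or place them in phospholipids, 2 fell with PE on CD, 1 fell with PE on MD, and 3 rose and 2 fell with the diet. Their median log2 fold changes were near 0, at -0.08, -0.05 and 0.09. Among all genes tested, 1.7%, 0.934% and 5.63% were called lower in these comparisons, and 4.74% were called higher with the diet. Acsl5, an acyl-CoA synthetase, fell in all 3 comparisons (-0.75, -0.71 and -0.83, with edgeR adjusted p = 0.0012, 0.00166 and 6.28e-05). Acsl4, which prefers arachidonic acid, fell with PE on CD (-0.66, SE 0.18, adjusted p = 0.043) and with the diet (-0.72, SE 0.18, adjusted p = 0.00994).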

How the data were processed

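Poly(A) RNA of mouse liver was sequenced in 19 libraries, 1 per mouse, in the 4 groups given by the titles and treatment labels, which name a single batch. Trimming with fastp 0.23.4 and quantification with Salmon 1.10.3 against the GENCODE transcriptome of GRCm39, with sequence bias correction, preceded summing to genes with tximport. The table deposited by the authors gives estimated counts for each gene, already whole and neither normalized nor filtered. Salmon shares reads among transcripts by estimation, so similar paralogs can exchange some of them. Genes on the opposite strand overlap every member but Elovl2. They are Cdc20 at Elovl1, Pitx3 at Elovl3, and genes with Gm symbols at Fads1, Fads2, Fads3, Fads6 and Elovl5. Libraries were described as stranded. Depth, 10398820 to 15456729 counts, limits precision most for Fads3.

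Counts were tested in R 4.3.3 with edgeR 4.0.16 (TMM, filterByExpr by group, quasi-likelihood F test, 1 coefficient per group, all 19 libraries, Benjamini-Hochberg over 13597 genes). The SE is the log2 fold change divided by the square root of F. A call needed an adjusted p below 0.05 together with a log2 fold change of 0.38 or more in size, limits taken from the methods of the study. The p-values measure the spread between mice housed by group. Log2 CPM used a prior count of 2. On simulated data, 86.8% (PE on CD), 83.8% (PE on MD) and 84.3% (diet, with vehicle) of 197 genes changed by 1.5 on the log2 scale were recovered, among 13454, 13404 and 13404 genes. Smaller changes, such as most of those estimated for the members, were not simulated.

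The members, gene lists and tests were chosen with earlier results of these data known. All 8 members are named, and of other lists up to 6 called genes with the largest changes, beside Srebf1, Ppara, Elovl6, Scd1, Bmal1 and Cyp4a12a. Ucp1, Adipoq, Car3, Cfd, Cidea, Pck1 and Fabp2 were chosen after their values were seen. Lists cover elongases, stearoyl-CoA desaturases, later elongation steps, electron donors, peroxisomal chain shortening, fatty acid activation, regulators, targets of SREBP1, SREBP2 and PPARα, clock genes, sex-biased genes and markers of cell types. Alternatives were DESeq2 1.42.0, RLE normalization, a fit without the filter, a stricter filter, calls without a fold limit, a fit of the compared groups alone, replicate numbers as a block, the division of library numbers, thinning to equal depth, the clock score, and leaving out each library. The median correlation of residuals was 0.0293 over the 27 pairs of libraries that share a replicate number, and 6 pairs exceeded 0.1, so that libraries were treated as unpaired. Levels between genes were compared per kilobase of the canonical transcript in GENCODE vM39. Promoter windows came from RefSeq, with no entry for Fads1 and Elovl3.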

Additional observations from a re-analysis of the deposited data

Results flagged for a closer look

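In 5 of the 32 groups of libraries examined (8 genes in 4 groups), 1 library stood apart by the size of its gap to the nearest other library. Chance gives about 1 in 20 for independent sets of normally distributed values. These sets are not independent, since the genes share libraries and some correlate within groups. CD + Veh replicate 4 stood apart in 3 of the 5. It held 1095 CPM of Fads1, with the next library at 703 CPM. For Fads2 it held 1716 CPM, with the next at 1027 CPM, and for Elovl5 it held 1128 CPM, with the next at 810.3 CPM. Without this library, the call of Fads1 between MD + Veh and CD + Veh was lost (-0.63, edgeR adjusted p = 0.0572), and the estimate of Elovl5 for PE on CD changed sign, from -0.05 to 0.12. CD + PE replicate 2 held 349.8 CPM of Elovl3, with the next library at 194 CPM, and was also the library with the highest Kupffer cell marker sum and the highest clock score. MD + Veh replicate 2 held 1350.3 CPM of Elovl5, with the next at 919 CPM.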

How the results depend on the processing

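The number of members called for PE on CD, 1 in the reported fit, was 2 without a minimum fold and 0 with only the groups compared, with the division of library numbers or with the clock score. For PE on MD the 5 calls became 0 with the division as a covariate, 4 with RLE normalization, 4 with only the groups compared and 6 without a minimum fold (Fads6 added). For the diet the 3 calls became 0 with the clock score, and between MD + PE and CD + Veh the 7 became 3 with the division and 4 with the clock score. For the interaction, DESeq2 called 2 and the fit with the replicate block 1 (Elovl3, -2.06, adjusted p = 0.0175), against 0. The replicate block changed no other count of calls. Without 1 library at a time the counts ran from 0 to 1 for PE on CD, 3 to 5 for PE on MD, 2 to 3 for the diet, 4 to 4 for MD + PE against CD + PE, 7 to 7 for MD + PE against CD + Veh and 0 to 0 for the interaction. The cause of these changes was not tested.

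Estimates that changed sign were small and not called. For Fads3 and the diet they were 0.00189 (replicate block), 0.19 (division) and 0.0869 (thinned), for its interaction -0.0931 (division) and for PE on CD -0.0109 (clock score). For Elovl5 they were 0.18 for PE on CD (division) and -0.10 for the diet (clock score). The interaction of Fads6 was -0.0194 (division), -0.0142 (thinned) and -0.0363 (clock score), that of Elovl1 was 0.0141 and the diet effect on Fads2 was 0.0721 (both clock score). Leaving out 1 library, sign changes fell in these ranges: Fads6 interaction -0.0317 to 0.0369, Fads3 diet -0.28 to 0.11, Fads3 interaction -0.00788 to 0.39, Fads3 in MD + PE against CD + PE -0.0170 to 0.22, Elovl5 for PE on CD -0.11 to 0.12, Elovl5 diet -0.0325 to 0.30 and Elovl3 in MD + PE against CD + PE -0.33 to 0.16. Fads2 for PE on MD lost its call without MD + Veh replicate 1 or 2 or MD + PE replicate 1, 2, 3 or 5. Over all genes, 397 were called for PE on CD (37 to 569 over all settings), 147 for PE on MD (33 to 292), 1410 for the diet (408 to 1936), 627 for MD + PE against CD + PE (450 to 987), 1982 for MD + PE against CD + Veh (930 to 2768) and 1 for the interaction (0 to 78), with the fewest for PE under the division. The ratio of Fads1 to Fads2, examined after the data were seen, moved by less than 1 SD of its group when libraries were thinned or left out.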

Other observations

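The closest companions in expression of 6 of the 8 members were read over the 19 libraries after group means were subtracted (genes averaging 5 CPM or more), given as descriptive values of Pearson's r. Elovl5 was closest to Rnd2 (0.94), a small GTPase, and to Spg21 (0.89), and Fads2 to Mmadhc (0.88), a gene of cobalamin metabolism. Elovl2 was closest to Nono (0.86), an RNA-binding protein, and Elovl3 to Helz2 (0.90) and St3gal1 (0.89). Elovl1 was closest to Srgn (0.84), the proteoglycan of immune cell granules, followed by Ifi27l2b (0.78) and Marcks (0.78). Fads6 was closest to Arhgap6 (0.83) and the retinol dehydrogenase Rdh9 (0.82). About 9392 genes were searched for each, and the libraries share scaling and depth.

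Elovl3 is also known as a male-biased gene, and 15 male-biased liver genes were read beside it. For PE on CD none was called by edgeR, with 1 higher at an unadjusted p below 0.05 and 1 higher by DESeq2, and for PE on MD none was called, with 2 lower at an unadjusted p below 0.05 and none by DESeq2. With the diet 1 was called higher, Cyp4a12b (log2 fold change 0.81, SE 0.26, edgeR adjusted p = 0.0437), and DESeq2 called 1 higher. At an unadjusted p below 0.05, 1 was higher and 3 were lower with the diet, and the median of the 15 was -0.13. Cyp4a12a gave 0.75 for PE on CD (adjusted p = 0.0881). Of 3 female-biased genes tested none was called by edgeR in these comparisons, with 1 higher for PE on MD both at an unadjusted p below 0.05 and by DESeq2.

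Of 10 hepatocyte markers, none was called with PE on either diet by edgeR, with 3 higher and 2 lower at an unadjusted p below 0.05 on CD and 2 higher and 2 lower on MD, and DESeq2 called 1 higher on CD. With the diet 1 rose and 3 fell. Of 10 Kupffer cell markers none was called with PE by edgeR or DESeq2, with 1 higher on CD at an unadjusted p below 0.05. Of 5 bile duct markers none was called by either tool with PE, with 3 higher on MD at an unadjusted p below 0.05, and of 10 stellate cell markers none, with 1 lower on MD. Of 8 sinusoidal endothelial markers none was called with PE by edgeR, with 2 higher on MD at an unadjusted p below 0.05 and by DESeq2. Fabp2, of the intestinal list, rose with the diet (1.08, SE 0.12, edgeR adjusted p = 7.56e-06).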
